A study of Homo sapiens with 12 samples.

Results

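The genes described here were 38 genes of glycolysis and of the metabolic response to low oxygen, taken by symbol from the 58174 Ensembl genes of the mRNA sequencing of 2 glioblastoma cell lines, U87 and U118. They comprised 17 glycolytic enzymes, 4 transporters of glucose or lactate, 4 regulatory kinases and 13 other hypoxia-responsive genes. They were taken by name and not by a threshold on these values, though with earlier results of these data known, and all 38 were found in both tables. Each line had 3 libraries of sensitive cells and 3 libraries of resistant cells, 12 libraries in all. Resistant cells had been formed by continuous induction with temozolomide (TMZ, an alkylating drug used against glioblastoma) at 50 µM, and sensitive cells were the TMZ-sensitive cells of the same line. According to the study, the starting cells were sorted to be negative for the stem cell markers CD133 and CD15 and were kept in serum with BMP2, and the resistant cells are aggregations that a small part of the surviving, enlarged cells formed after weeks of TMZ. The resistant cells of a line therefore descended from few survivors of a selection, and selection and drug cannot be told apart in this design. The comparison asks how transcripts of sugar breakdown and of the hypoxia response differed between resistant and sensitive cells of each line.

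Glycolysis splits glucose into pyruvate through a fixed series of enzymes, most of which exist in several forms encoded by separate genes. Lactate dehydrogenase then turns pyruvate into lactate, which monocarboxylate transporters carry out of the cell, while pyruvate dehydrogenase kinases limit the use of pyruvate within the mitochondria. When oxygen is low, the hypoxia-inducible factors HIF1α and HIF2α are stabilised, bind short DNA motifs with a shared core and raise the transcription of many of these genes. Glioblastoma is known for high glycolysis and for hypoxic zones around necrosis.

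Values were deposited as TPM, a transcript abundance, that corrects for transcript length and scales each library to the same total. Read numbers cannot be recovered from such values and sequencing depth is therefore unknown, and the errors given are the spread between libraries. Nothing in the labels says that replicates came from separate cultures, so p-values measure only the spread between these libraries, which may be technical. In a bulk library, a lower level in every cell and fewer cells with the transcript cannot be told apart. The libraries had 13270 to 15290 genes at 1 TPM or more. Mitochondrially encoded genes held 12.9% to 16.9% of the TPM in U87 sensitive and 22.2% to 23.7% in U87 resistant libraries, 7.42% to 19.7% in U118 sensitive and 13.2% to 29.9% in U118 resistant libraries. Because TPM is a share, this moves with the values of all other genes, and the fitted changes and enzyme sums were also computed without those genes and with median-ratio scaling, in which libraries are aligned on the median gene. The further gene lists were recomputed with median-ratio scaling alone. The counts of groups that do not overlap and the enzyme sum without GAPDH were computed only on the deposited values. Of 5 glial markers, GFAP stayed at or under 0.69 TPM and S100B and AQP4 were under 0.5 TPM in all 12 libraries. SLC1A3 stood at 1.79 to 9.56 TPM. ALDH1L1 had 19.99 to 24.08 TPM in U87 sensitive, 4.03 to 4.54 in U87 resistant and under 0.5 in all U118 libraries. The summed level of the 5 was 29.3 to 32.2 TPM in U87 sensitive, 9.50 to 11.99 in U87 resistant, 2.40 to 3.57 in U118 sensitive and 3.98 to 10.4 in U118 resistant libraries. Of 5 mesenchymal markers, VIM was the highest in every library, at 4425 to 7149 TPM. CHI3L1 was the lowest, at 65.6 to 67.0 TPM in U87 sensitive, 34.5 to 42.7 in U87 resistant and 1.14 to 5.88 in U118 libraries. Of 5 fibroblast markers, the summed level was 193 to 200 TPM in U87 sensitive, 353 to 422 in U87 resistant, 635 to 823 in U118 sensitive and 133 to 329 in U118 resistant libraries. The part of any of these marker lists in the results was not tested.

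The libraries labelled U118 resistant stood apart. Over 37949 genes, their Spearman correlation with the U118 sensitive libraries was 0.814 to 0.831, below their correlation with the 6 U87 libraries (0.866 to 0.875). In U118, 124 genes were at 10 TPM or more in every sensitive library and under 0.5 TPM in every resistant library, against 0 such genes in U87, and 91 of the 124 were also under 0.5 TPM in all U87 libraries. In the other direction, 66 genes were under 0.5 TPM in every U118 sensitive and at 10 TPM or more in every resistant library. There were 9 such genes in U87. Of the 66, 36 were at 10 TPM or more in all U87 libraries. The share of all genes in these U87 states was not computed, so the 91 and 36 have no background. Over the 38 genes described here the order was the other way round, with correlations of 0.909 to 0.949 to U118 sensitive and 0.854 to 0.910 to U87 libraries. All U118 results below rest on the libraries carrying that label. Within the group, replicate 1 differed from replicates 2 and 3. Its mitochondrial share was 13.2% against 29.9% and 26.1%, and it had the highest value of the 3 for 34 of the 38 genes, as it had for 74.8% of all genes tested in U118. U118 results are therefore also given without it.

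HIF binds a core of 5 letters, ACGTG or GCGTG. This core was searched on both strands of the RefSeq promoters (GRCh38.p14, 250 bases before to 50 after the start), which were matched for 33 of the 38 genes, and the palindrome CACGTG counts as 2 overlapping matches. At least 1 match was present in 25 of the 33 promoters (75.8%), against 48.4% of 35116 promoters of the same length. By role these were 12 of 17 glycolytic enzymes, 1 of 2 transporters, 3 of 4 kinases and 9 of 10 other genes. Matching letters are a description and not evidence of binding. The 250 bases before the start are printed, 5′ to 3′, for the 2 genes that rose in both lines (ALDOC and P4HA2) and for the 2 with the largest falls in U118 (ADM and CA12), with the core in capitals. The windows are chr17:28576896-28577145 (minus strand), chr5:132227092-132227341 (minus), chr11:10304823-10305072 (plus) and chr15:63381847-63382096 (minus).
ALDOC: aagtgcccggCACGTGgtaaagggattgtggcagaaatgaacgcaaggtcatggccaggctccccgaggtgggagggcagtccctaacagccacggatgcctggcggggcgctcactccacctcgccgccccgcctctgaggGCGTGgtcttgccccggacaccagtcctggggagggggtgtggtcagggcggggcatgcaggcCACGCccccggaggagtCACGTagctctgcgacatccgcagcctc
P4HA2: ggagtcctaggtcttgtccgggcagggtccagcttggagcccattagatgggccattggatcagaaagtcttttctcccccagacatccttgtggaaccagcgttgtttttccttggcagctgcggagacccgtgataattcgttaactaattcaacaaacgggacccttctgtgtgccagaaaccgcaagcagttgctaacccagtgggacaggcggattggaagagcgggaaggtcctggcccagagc
ADM: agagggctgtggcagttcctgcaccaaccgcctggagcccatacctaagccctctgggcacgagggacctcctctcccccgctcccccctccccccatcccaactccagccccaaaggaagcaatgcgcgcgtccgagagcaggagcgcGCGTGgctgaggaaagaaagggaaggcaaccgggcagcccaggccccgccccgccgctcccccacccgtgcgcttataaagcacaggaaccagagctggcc
CA12: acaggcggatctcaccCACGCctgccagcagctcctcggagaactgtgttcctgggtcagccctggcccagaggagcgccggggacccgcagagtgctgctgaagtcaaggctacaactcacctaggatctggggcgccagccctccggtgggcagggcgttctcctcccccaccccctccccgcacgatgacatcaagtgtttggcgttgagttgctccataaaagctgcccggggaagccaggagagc
The ALDOC stretch held 5 matches, the ADM and CA12 stretches 1 each and the P4HA2 stretch 0. Only 1 window per gene was searched. The P4HA2 window lies inside the annotated gene (chr5:132191838-132295315, minus strand) and not at its 5′ end, which was not searched.

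Resistant and sensitive cells were compared within each line with limma on log2(TPM + 1) over every gene that reached 1 TPM in 3 or more of the 6 libraries. A call needed both an adjusted p (Benjamini-Hochberg, over every gene tested) below 0.05 and a log2 fold change of 1 or beyond, up or down. Fold changes on this scale understate the change of low genes. In U87, 37 of the 38 genes were tested, 3 were called higher (8.11%, against 3.03% of the 13845 genes tested) and 0 lower (against 7.79%). The 3 were NDRG1, P4HA2 and ALDOC. In U118 all 38 were tested, 3 were called higher (7.89%, against 8.64% of 15527 genes), namely ALDOC, P4HA2 and ENO2, and 8 were called lower (21.1%, against 26.6%). The U118 shares were near the background, so the number of calls there is not particular to these genes. Those that fell were ADM, CA12, NDRG1, BNIP3L, ANGPTL4, PFKFB3, PDK3 and BNIP3. NDRG1 thus rose in U87 and fell in U118.

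**Figure D1:**
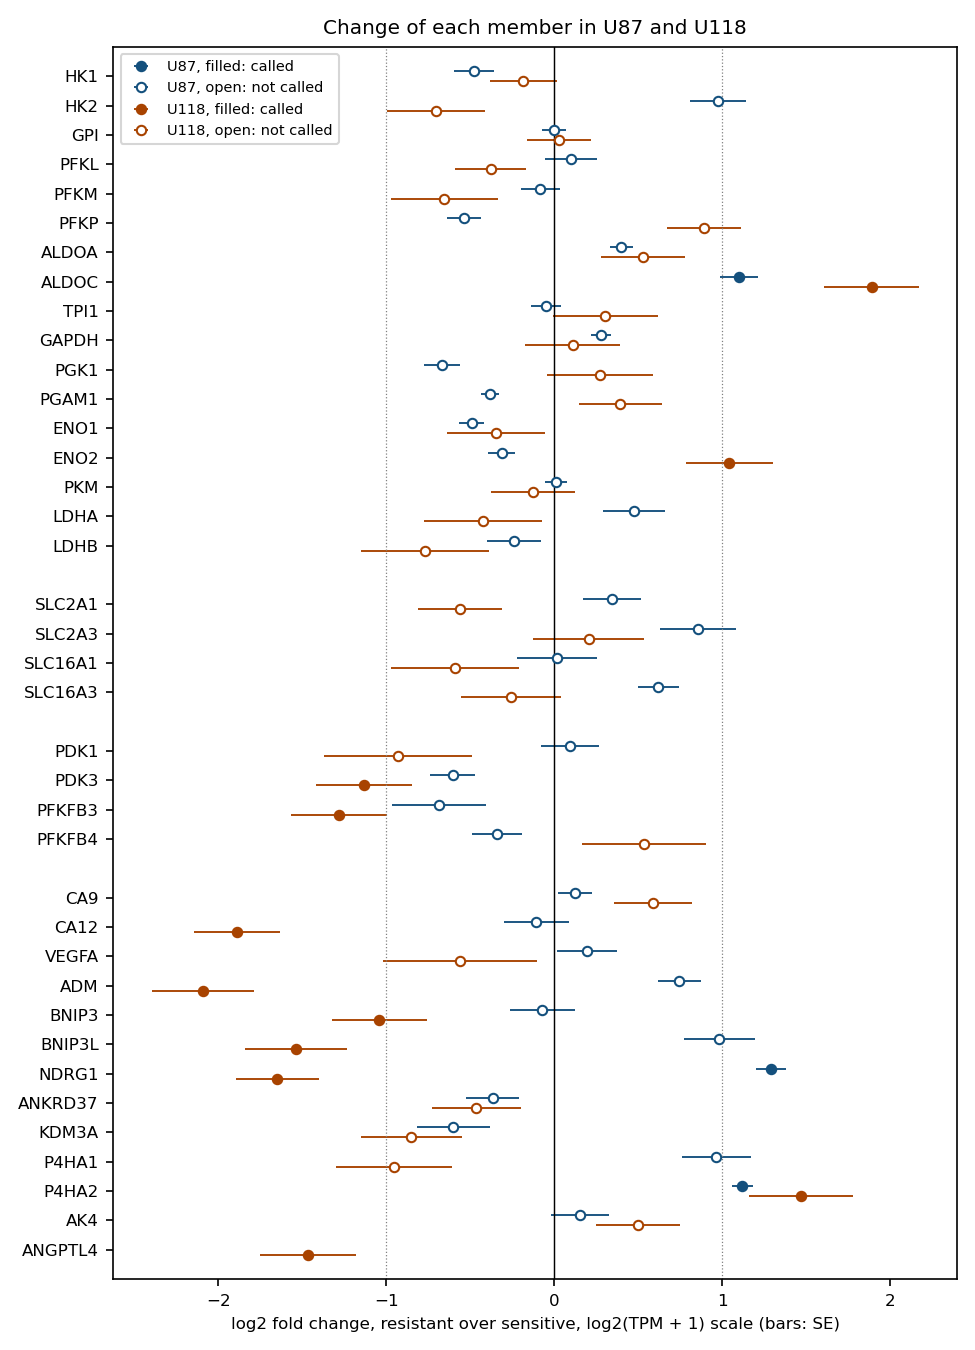
Log2 fold change of each of the 38 genes, resistant over sensitive, on the log2(TPM + 1) scale, in U87 (blue) and U118 (orange), with the standard error as bars and genes grouped from top to bottom as enzymes, transporters, kinases and others; filled points passed the test. ALDOC and P4HA2 lie right of 1 in both lines, and among the other hypoxia-responsive genes most U118 points lie left of 0; ANGPTL4 has no U87 point because it did not pass the filter on low values there.

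ALDOC (ENSG00000109107, chr17:28573115-28577264, minus strand) encodes aldolase C, the brain form of the enzyme that splits fructose bisphosphate. Its levels were 26.4, 20.9 and 21.0 TPM in U87 sensitive and 48.4, 51.4 and 49.2 TPM in U87 resistant libraries. In U118 they were 2.15, 2.78 and 1.70 TPM in sensitive and 15.1, 8.08 and 10.1 TPM in resistant libraries. The groups did not overlap in either line, and the fold of the means was 2.18 in U87 and 5.03 in U118. The log2 fold change was 1.10 ± 0.12 (SE, adjusted p = 0.0006) in U87 and 1.89 ± 0.28 (adjusted p = 0.00063) in U118. The difference between the lines, 0.79 ± 0.31, did not pass the test (adjusted p = 0.063). ALDOC remained a small part of the aldolase TPM beside ALDOA, as given below.

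P4HA2 (chr5:132191838-132295315, minus strand) encodes a catalytic subunit of prolyl 4-hydroxylase, which modifies collagen and uses oxygen. It stood at 94.7, 96.9 and 91.7 TPM in U87 sensitive and 207, 210 and 202 TPM in U87 resistant libraries, 2.18-fold higher in the means. In U118 it went from 50.4, 67.2 and 47.7 TPM in sensitive to 245, 113 and 128 TPM in resistant libraries, 2.94-fold higher. All resistant libraries lay above all sensitive ones in both lines, and U118 resistant replicate 1 was the highest by far. The log2 fold change was 1.12 ± 0.06 (adjusted p = 7.8e-05) in U87 and 1.47 ± 0.31 (adjusted p = 0.0041) in U118, and without that replicate it was 1.13 ± 0.19 in U118 and still called. The paralogue P4HA1 behaved otherwise in U118, with 38.1, 32.0 and 46.5 TPM in sensitive and 34.5, 13.3 and 15.6 TPM in resistant libraries (log2 fold change -0.95 ± 0.35, under the fold threshold). In U87 P4HA1 had 12.9, 22.1 and 14.2 TPM in sensitive and 30.4, 30.2 and 36.1 TPM in resistant libraries, a log2 fold change of 0.96 ± 0.20 that also stayed just under the threshold.

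NDRG1 (chr8:133237171-133302022, minus strand), a stress-responsive gene long used as a marker of hypoxia, showed the widest gap between the lines. Its levels in U87 were 20.5, 21.1 and 22.5 TPM in sensitive and 55.4, 50.9 and 54.5 TPM in resistant libraries. In U118 they were 125, 127 and 103 TPM in sensitive and 51.1, 31.4 and 31.2 TPM in resistant libraries. The groups did not overlap in either line and moved in opposite directions, 2.51-fold up in U87 and to 0.320 of the sensitive mean in U118. The log2 fold changes were 1.29 ± 0.09 (adjusted p = 0.00013) and -1.65 ± 0.25 (adjusted p = 0.00066). NDRG1 fell in U118 also with median-ratio scaling (-1.10) and without resistant replicate 1 (-1.88).

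**Figure D2:**
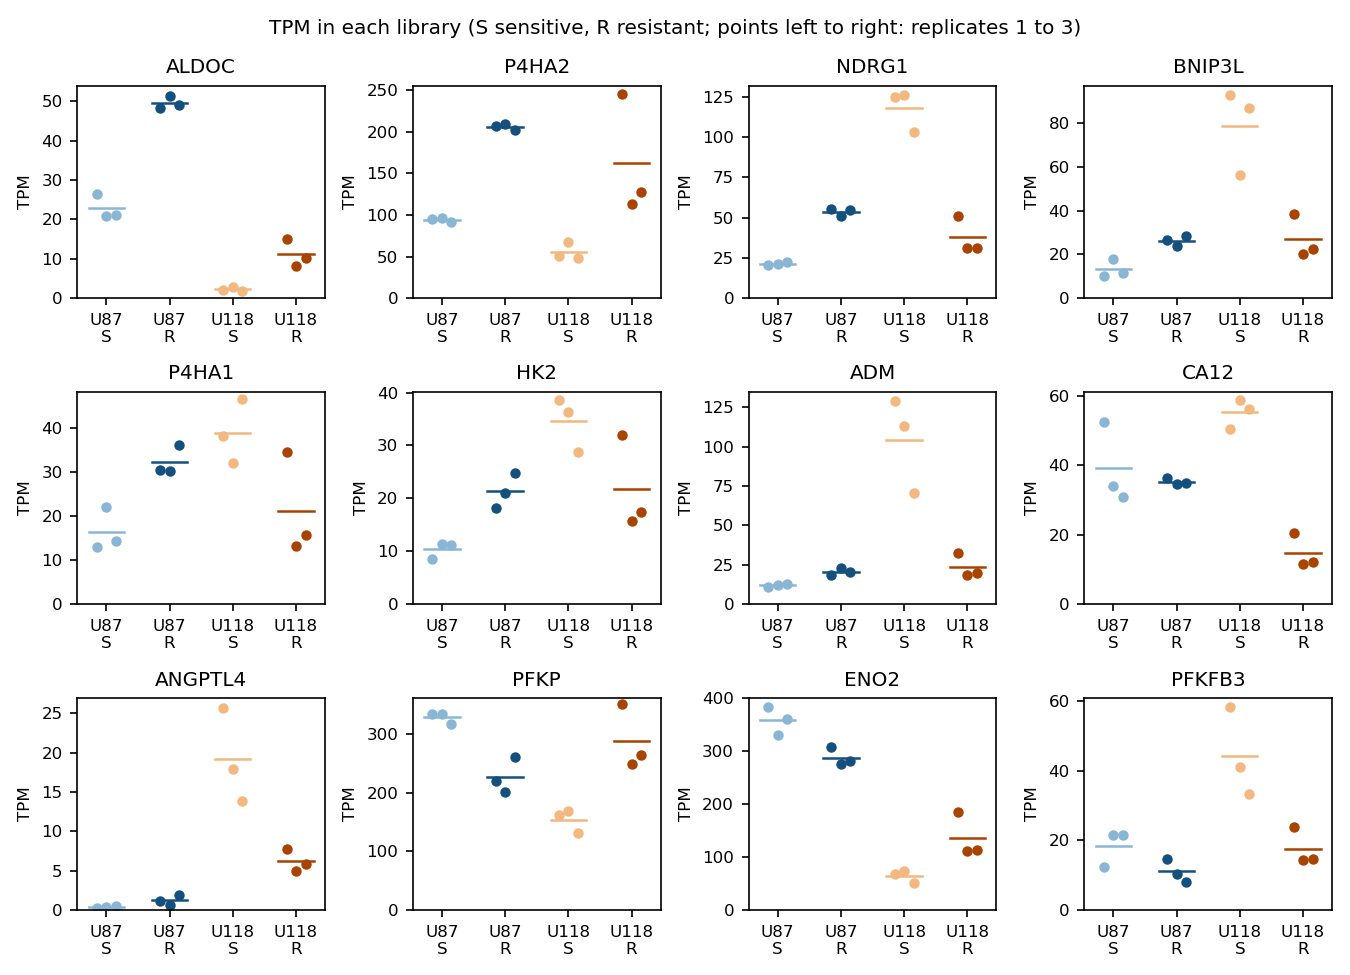
TPM in each library for 12 of the genes (points, replicates 1 to 3 from left to right; horizontal lines, group means; S sensitive, R resistant; each panel has its own linear axis from 0). NDRG1, BNIP3L, ADM and ANGPTL4 were highest in U118 sensitive libraries, and the first of the 3 U118 resistant points was the highest of its group in all 12 panels.

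Among the other glycolytic enzymes, changes in U87 were small and went both ways. With adjusted p under 0.05 but below the fold threshold, HK2 (log2 fold change 0.97), ALDOA (0.40) and GAPDH (0.28) had higher values in resistant cells, and PGK1 (-0.67), PFKP (-0.54), ENO1 (-0.49), HK1 (-0.48), PGAM1 (-0.38) and ENO2 (-0.31) had lower ones. By adjusted p alone, 1306 of the 13845 genes tested were higher and 4107 lower. With median-ratio scaling, 5 of the 17 enzymes were higher and 0 lower at adjusted p under 0.05, so all of these lower values lost significance. Without mitochondrially encoded genes the counts were 5 and 4. HK2, the hexokinase that is tied to the mitochondrial surface in tumours, had 8.59, 11.3 and 11.2 TPM in sensitive and 18.2, 21.0 and 24.9 TPM in resistant U87 libraries, with no overlap. Of the 17 enzymes, 4 had all resistant libraries above all sensitive ones in U87 (23.5%, against 13.6% of all genes) and 6 had all below (35.3%, against 39.8%). The remaining 7, among them GPI, PKM and TPI1, overlapped. The median log2 fold change of the 17 was -0.05, against -0.24 over all genes tested.

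In U118, ENO2 was the other enzyme called. ENO2 (chr12:6913745-6923698, plus strand) encodes enolase 2, the neuronal form of enolase, and had 69.0, 73.3 and 51.9 TPM in sensitive and 185, 111 and 114 TPM in resistant libraries. All resistant libraries were above the sensitive ones, with a log2 fold change of 1.04 ± 0.26 (adjusted p = 0.0097). The call was lost without resistant replicate 1 (0.80) and without sensitive replicate 3 (0.89). PFKP, the platelet form of phosphofructokinase, had 162, 168 and 131 TPM in sensitive and 350, 248 and 264 TPM in resistant libraries, also without overlap, but its log2 fold change of 0.89 ± 0.22 stayed under the threshold. It passed with median-ratio scaling (1.45). In U87 the same gene was lower in every resistant library (220, 200 and 260 TPM) than in every sensitive one (333, 333 and 317 TPM). The median of the 17 enzymes in U118 was 0.03, against -0.52 over all genes tested.

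The summed level of the 17 enzymes was 27011 ± 132 TPM in U87 sensitive and 27218 ± 198 TPM in U87 resistant libraries (SD, n = 3; exact permutation test, two-sided, p = 0.3), and 26846 ± 2495 and 27306 ± 377 TPM in U118 (exact p = 1). With 3 libraries against 3, the exact permutation test cannot go below p = 0.1. As a share of the TPM outside mitochondrially encoded genes, the sum was 3.19% ± 0.07 and 3.54% ± 0.06 in U87 and 3.05% ± 0.06 and 3.58% ± 0.39 in U118, with no overlap in either line (exact p = 0.1, the smallest possible). GAPDH alone made up 34.4% to 54.3% of the sum. With median-ratio scaling the log2 ratio of the sums, resistant over sensitive, was 0.27 in U87 and 0.62 in U118, against 0.01 and 0.02 on the deposited TPM, and every resistant sum then lay above every sensitive one (exact p = 0.1 in each line). Without GAPDH the sum on the deposited TPM was 17329 ± 526 and 15503 ± 380 TPM in U87, lower in every resistant library, and 14006 ± 2775 and 13444 ± 956 TPM in U118, where the groups overlapped. This sum was not computed outside mitochondrially encoded genes. Those genes took a larger share of every U87 resistant library (22.2% to 23.7%) than of the sensitive ones (12.9% to 16.9%). Whether the lower U87 sum would remain on that scale was therefore not tested.

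The choice between forms of an enzyme was expressed as the share of each form in the TPM of its family, for 12 shares a line. In U87, 7 shares did not overlap between the groups. HK2 was 2.37% ± 0.52 of hexokinase 1 and 2 TPM in sensitive and 6.47% ± 0.91 in resistant cells (SD, n = 3). ALDOC was 1.88% ± 0.22 and 3.07% ± 0.20 of the aldolases, and LDHB, the form of lactate dehydrogenase common in heart, 66.8% ± 7.3 and 55.3% ± 3.8. PFKP was 62.1% ± 0.9 and 53.1% ± 1.0 and PFKL 17.5% ± 2.6 and 23.2% ± 1.5 of the phosphofructokinases. SLC2A3 was 52.9% ± 2.7 and 61.8% ± 5.7 of the 2 glucose transporters, and PDK3 43.7% ± 3.4 and 27.3% ± 1.2 of the 2 pyruvate dehydrogenase kinases.

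In U118, 7 shares did not overlap either, with PFKP at 47.8% ± 2.2 and 70.9% ± 1.3 of the phosphofructokinases, PFKM at 30.1% ± 2.1 and 15.4% ± 3.4 and PFKL at 22.2% ± 0.1 and 13.7% ± 2.4. PFKFB4, one of the bifunctional kinases that set the level of fructose 2,6-bisphosphate, was 30.8% ± 3.3 and 62.0% ± 6.0 of PFKFB3 and PFKFB4 TPM. P4HA2 was 58.4% ± 8.6 and 88.8% ± 0.9 of the prolyl hydroxylase subunits. ENO2 was 1.44% ± 0.15 and 3.73% ± 0.57 of the enolases and ALDOC 0.251% ± 0.043 and 0.932% ± 0.499 of the aldolases. Each of these 14 differences had an exact two-sided permutation p of 0.1, the smallest that the design allows, and 0.171 after Benjamini-Hochberg adjustment over the 12 shares of a line, so none passed. A share is set within a library and does not depend on the scaling of that library. The PFKL, PFKM and PFKP shares are parts of the same total and so are not independent of each other. Among all genes, whose levels do depend on scaling, 13.6% in U87 had all resistant libraries above all sensitive ones and 39.8% all below. In U118 these were 15.7% and 42.9%. No background of shares in other gene families was computed.

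None of the 4 transporters was called in either line. In U87 the glucose transporter SLC2A3 had 23.3, 27.4 and 19.1 TPM in sensitive and 54.0, 46.2 and 30.7 TPM in resistant libraries (log2 fold change 0.86 ± 0.23, adjusted p = 0.023), and the lactate exporter SLC16A3 had 44.1, 39.8 and 39.8 and then 75.0, 56.5 and 61.1 TPM (0.62 ± 0.12, adjusted p = 0.0074). Both were higher in every resistant library but under the fold threshold, which SLC2A3 passed with median-ratio scaling (1.11). SLC2A1, the basal glucose transporter, had a log2 fold change of 0.34 in U87 and -0.56 in U118, and the monocarboxylate transporter SLC16A1 of 0.02 and -0.59. SLC2A1 was also higher in every U87 resistant library, but with adjusted p = 0.16 in limma. Thus 3 of the 4 had all U87 resistant libraries above all sensitive ones (75%, against 13.6% of all genes) and 0 all below (against 39.8%). In U118 all 4 overlapped between the groups, while 15.7% of all genes lay all above and 42.9% all below. SLC16A3 shares exonic sequence with CSNK1D on the opposite strand (66.7 to 95.8 TPM), and it is not stated whether counting used strand. The same limit holds for HK2 with AC019069.1 (3.02 to 14.4 TPM), for BNIP3L with PNMA2 (0 to 17.8 TPM), for PFKM with SENP1 (7.79 to 37.1 TPM) and for ANKRD37 with UFSP2 (7.58 to 18.8 TPM). It also holds for CA9 with ARHGEF39 (3.85 to 12.4 TPM), ANGPTL4 with RAB11B-AS1 (0.896 to 6.64 TPM), SLC16A1 with SLC16A1-AS1 (0.923 to 10.9 TPM) and GAPDH with AC006064.4 (108 to 353 TPM). PFKFB4 overlaps UCN2 on its own strand (3.73 to 20.9 TPM).

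Of the 4 kinases, 0 were called in U87 and 2 fell in U118 (50%, against 26.6% of all genes). With median-ratio scaling 0 of the 4 were lower (against 13.0% of all genes) and 1, PFKFB4, was higher in U118 (25%, against 14.7%). PFKFB3, the bifunctional kinase with the highest kinase activity of its family, stood at 58.3, 41.1 and 33.4 TPM in U118 sensitive and 23.7, 14.4 and 14.7 TPM in resistant libraries (log2 fold change -1.28 ± 0.29, adjusted p = 0.0057). PDK3 had 6.07, 5.94 and 6.38 TPM in sensitive and 3.90, 1.70 and 1.59 TPM in resistant libraries (-1.13 ± 0.28, adjusted p = 0.0096). Neither overlapped. Both stayed negative but lost the call with median-ratio scaling (-0.74 and -0.71), and PDK3 lost it without resistant replicate 3 (-0.97). In U87 PDK3 was lower in every resistant library (1.55, 1.30 and 1.43 TPM against 2.84, 2.88 and 2.37 TPM), at a log2 fold change of -0.61. PDK1 had log2 fold changes of 0.09 in U87 and -0.93 in U118, and PFKFB4 of -0.34 and 0.53, none of them called.

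Of the 13 other hypoxia-responsive genes, 6 were called lower in U118 (46.2%, against 26.6% of all genes) and 1 higher (7.69%, against 8.64%). With median-ratio scaling 3 of the 13 were lower (23.1%, against 13.0%). ADM (chr11:10304680-10307397, plus strand), which encodes the vasodilator peptide adrenomedullin, had the largest fall of the 38 genes in U118. It stood at 129, 113 and 70.4 TPM in sensitive and 32.6, 18.4 and 19.8 TPM in resistant libraries, 0.227 of the sensitive mean (log2 fold change -2.09 ± 0.30, adjusted p = 0.00055). CA12 (chr15:63321378-63382161, minus strand), a carbonic anhydrase of the cell surface that helps export acid, had 50.5, 58.7 and 56.3 and then 20.3, 11.4 and 12.2 TPM (-1.89 ± 0.26, adjusted p = 0.00038). Both groups stood clear of each other for these genes, and both were called also with median-ratio scaling (-1.55 and -1.35) and without resistant replicate 1 (-2.34 and -2.13). The related CA9, a classical HIF1 target, had 2.40, 1.80 and 1.40 and then 4.16, 2.78 and 2.97 TPM in U118 (0.59 ± 0.23, not called), and 24.8 to 29.8 TPM in all U87 libraries.

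BNIP3L and BNIP3 encode related receptors that mark mitochondria for autophagy. BNIP3L (chr8:26382898-26505636, plus strand) had 93.0, 56.3 and 86.9 TPM in U118 sensitive and 38.4, 20.05 and 22.3 TPM in resistant libraries (-1.54 ± 0.30, adjusted p = 0.0029), and BNIP3 had 78.6, 69.4 and 72.1 and then 54.5, 25.8 and 30.5 TPM (-1.04 ± 0.28, adjusted p = 0.014). In U87 the pair parted, with 9.99, 17.8 and 11.6 and then 26.4, 23.6 and 28.5 TPM for BNIP3L (0.98 ± 0.21, just under the fold threshold) and overlapping values for BNIP3 (-0.07 ± 0.19). BNIP3 lost its U118 call with median-ratio scaling (-0.49), without mitochondrially encoded genes (-0.85), and without sensitive replicate 1 (-0.99), resistant replicate 2 (-0.83) or resistant replicate 3 (-0.94), and BNIP3L with median-ratio scaling (-0.99). Pseudogenes of BNIP3 held up to 14.9% of its TPM, so part of its reads may have been divided among copies.

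ANGPTL4, a secreted inhibitor of lipoprotein lipase, was found almost only in U118. It had 25.7, 18.0 and 13.8 TPM in U118 sensitive and 7.74, 4.99 and 5.79 TPM in resistant libraries (-1.47 ± 0.29, adjusted p = 0.0028), a call that ended with median-ratio scaling (-0.96). In U87 it had 0.26, 0.39 and 0.55 TPM in sensitive and 1.10, 0.67 and 1.97 TPM in resistant libraries and was not tested. VEGFA, the main angiogenic factor, was far higher in U118 (57.6 to 232 TPM) than in U87 (18.0 to 29.3 TPM), in libraries deposited as separate tables, and overlapped between the groups in both lines. KDM3A, a histone demethylase, had log2 fold changes of -0.60 in U87 and -0.85 in U118, with all resistant below all sensitive libraries in both, and ANKRD37 of -0.37 and -0.46; none was called. AK4, an adenylate kinase of mitochondria, had 0.15 and 0.50, but its pseudogenes held up to 71.4% of its own TPM, so its level is uncertain.

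Counted by overlap alone, 12 of the 37 genes tested in U87 had all resistant libraries above all sensitive ones (32.4%, against 13.6% of all genes tested) and 9 had all below (24.3%, against 39.8%). In U118 the counts were 7 of 38 above (18.4%, against 15.7%) and 10 below (26.3%, against 42.9%). The median log2 fold change was 0.02 in U87, against -0.24 over all genes, and -0.40 in U118, against -0.52. With median-ratio scaling, 7 genes were called higher in U87 (18.9%, against 4.76% of all genes) and 0 lower (against 3.92%), since HK2, SLC2A3, BNIP3L and P4HA1 then passed the threshold. In U118 that scaling gave 6 higher (15.8%, against 14.7%), namely ALDOC, P4HA2, ENO2, PFKP, ALDOA and PFKFB4, and 3 lower (7.89%, against 13.0%), namely ADM, CA12 and NDRG1.

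Leaving out U118 resistant replicate 1 had the opposite effect. The genes called lower then numbered 15 of 38 (39.5%, against 38.4% of all genes tested), with HK2, LDHB, SLC16A1, PDK1, VEGFA, KDM3A and P4HA1 added, and 2 were called higher, ALDOC and P4HA2 (5.26%, against 5.23%). In replicate 1, 19 of the 38 genes lay below the sensitive mean, against 27 and 26 in replicates 2 and 3.

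**Figure D3:**
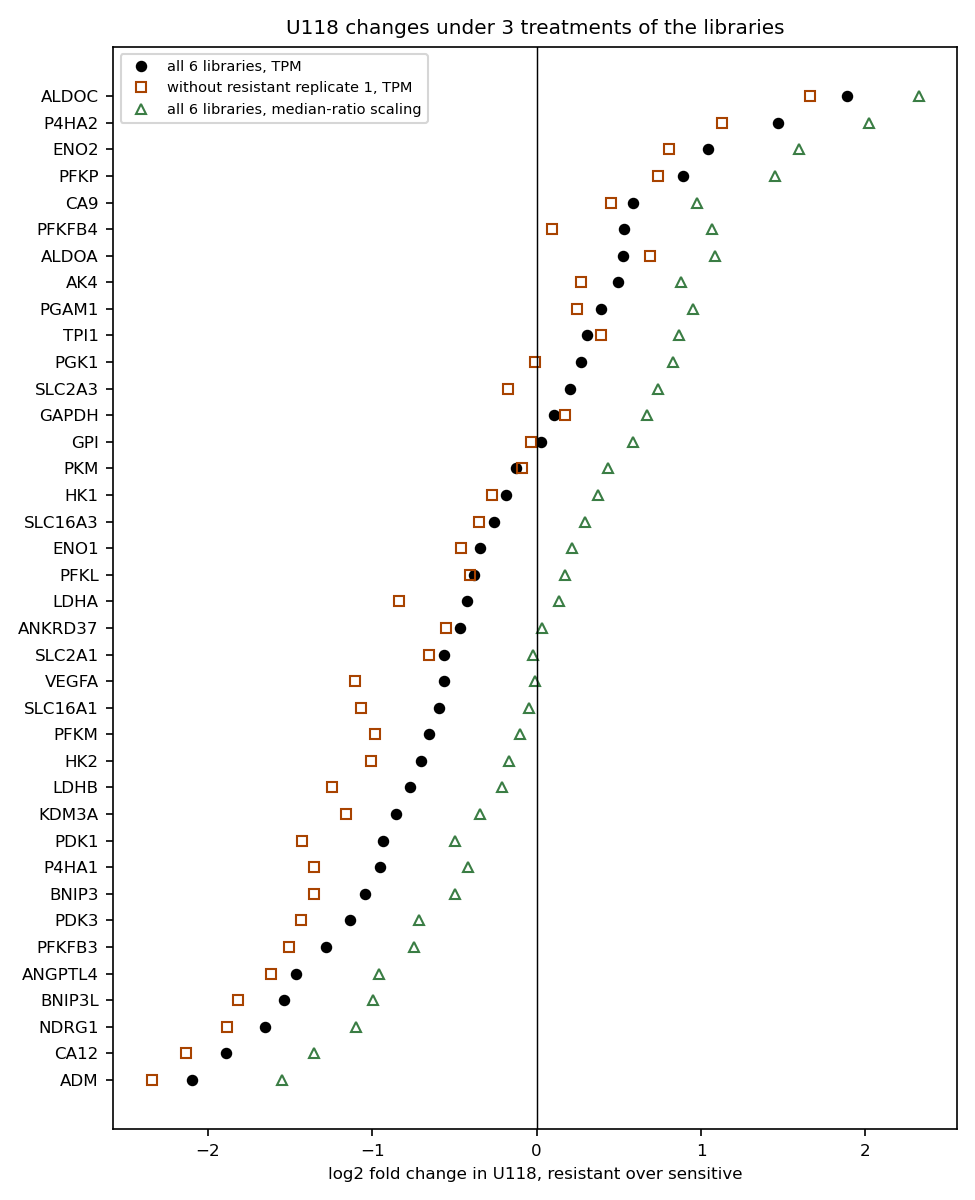
Log2 fold change of the 38 genes in U118, resistant over sensitive, ordered by the value from all 6 libraries (black), with the values without resistant replicate 1 (orange squares) and with median-ratio scaling (green triangles). Scaling moved every gene to the right and leaving out the replicate moved most of the lower genes to the left; ALDOC and P4HA2 stayed right of 1 and ADM, CA12 and NDRG1 left of -1 in all 3.

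The change in U118 minus the change in U87 was tested over all 12 libraries. Of the 38 genes, 2 were called higher (5.26%, against 12% of 16382 genes) and 7 lower (18.4%, against 18.5%). The lower ones were NDRG1 (-2.94 ± 0.26), ADM (-2.84 ± 0.35), BNIP3L (-2.52 ± 0.39), ANGPTL4 (-2.11 ± 0.38), P4HA1 (-1.92 ± 0.44), CA12 (-1.78 ± 0.33) and HK2 (-1.68 ± 0.35), and the higher ones PFKP (1.43 ± 0.23) and ENO2 (1.36 ± 0.28). ANGPTL4 entered this test through its U118 values alone, since in U87 it lay under the filter, so its difference rests on a U87 change near the floor of the scale. These 9 were called also with median-ratio scaling and without U118 resistant replicate 1. For NDRG1, ADM, BNIP3L and ANGPTL4 the U87 resistant values were all above and the U118 resistant values all below the sensitive values of the same line. Over the 37 genes tested in both lines, 17 log2 fold changes had the same sign, 13 were positive in U87 and negative in U118, and 7 the reverse. Across these genes, which are not independent replicates, the Spearman correlation was -0.01.

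Genes of neighbouring pathways, from lists that hold none of the 38, moved in both directions. In a list of 40 further hypoxia-response genes, U87 had 6 of 33 tested called higher (18.2%, against 3.03% of all genes) and 0 lower (against 7.79%), while U118 had 5 of 34 higher (14.7%, against 8.64%) and 9 lower (26.5%, against 26.6%). With median-ratio scaling the U118 counts were 10 higher and 4 lower of 34. That scaling also moved the U118 shares over all genes, from 8.64% to 14.7% higher and from 26.6% to 13.0% lower. In U87 these included LOX and LOXL2, which crosslink collagen, at 14.96 ± 4.25 and 65.1 ± 10.9 TPM (log2 fold change 2.07 ± 0.21) and at 107 ± 3 and 296 ± 14 TPM (1.46 ± 0.07), and TMEM45A (2.12 ± 0.21). In U118 BHLHE40, a circadian repressor, rose from 26.1 ± 2.9 to 121 ± 22 TPM (2.16 ± 0.22) and DDIT4, an inhibitor of mTORC1, from 21.1 ± 8.2 to 82.2 ± 39.2 TPM (1.90 ± 0.39). TGFA, a ligand of the EGF receptor, was listed at 0 in all U118 sensitive libraries and had 15.5 ± 11.8 TPM in resistant ones. IGFBP3 fell from 379 ± 57 to 46.4 ± 25.3 TPM (-3.11 ± 0.34) and PPP1R13L from 21.0 ± 2.3 to 3.87 ± 0.63 TPM (-2.18 ± 0.23), and SLC2A10 was at 6.69 ± 0.90 TPM and listed at 0 in the resistant libraries. TMEM45A in U87 and TGFA and SLC2A10 in U118 passed the filter on low values only through the group where they were high.

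Among 20 genes of pyruvate and lactate fate, U87 had 1 of 16 tested called higher (6.25%, against 3.03% of all genes) and 0 lower (against 7.79%). U118 had 1 of 17 higher (5.88%, against 8.64%) and 4 lower (23.5%, against 26.6%). With median-ratio scaling U118 had 2 higher and 3 lower, against 14.7% and 13.0% of all genes. MPC2, a subunit of the mitochondrial pyruvate carrier, was the higher one in both, at 32.7 ± 6.1 and 99.3 ± 13.9 TPM in U87 (1.58 ± 0.16) and 68.3 ± 21.7 and 162 ± 88 TPM in U118 (1.15 ± 0.37). In U118 DLAT, the acetyltransferase of pyruvate dehydrogenase, fell (-1.64 ± 0.22), as did PDPR (-2.37 ± 0.28). Malic enzyme ME1 went from 8.98 ± 0.41 TPM to being listed at 0, and so passed the filter on low values only through the sensitive libraries. Of 20 genes of the pentose phosphate pathway and glycogen, 6 of 18 tested fell (33.3%, against 26.6% of all genes) and 0 rose (against 8.64%) in U118. With median-ratio scaling 3 fell and 3 rose, against 13.0% and 14.7% of all genes. The falls were led by the glycogen phosphorylases PYGB (410 ± 94 to 44.7 ± 10.2 TPM, -3.16 ± 0.26) and PYGL (61.0 ± 2.8 to 6.51 ± 3.32 TPM, -3.13 ± 0.30) and the branching enzyme GBE1 (-1.53 ± 0.33). In U87, 1 of 17 tested was called higher (5.88%, against 3.03%) and 2 lower (11.8%, against 7.79%). Transketolase TKT (638 ± 43 to 309 ± 9 TPM, -1.04 ± 0.07) and RPIA (-1.28 ± 0.13) fell there, and PPP1R3C, which targets a phosphatase to glycogen, rose (1.59 ± 0.18). A further list held 20 genes of glycolysis and related forms, not all of them glycolytic enzymes. In U87, 0 of 11 tested were called higher (against 3.03% of all genes) and 1 lower (9.09%, against 7.79%). The lower one was PGAM5 (-1.02 ± 0.08), a protein phosphatase of the phosphoglycerate mutase family. In U118, 3 of 12 tested were higher (25%, against 8.64%) and 2 lower (16.7%, against 26.6%). HKDC1, a further hexokinase, rose from 6.21 ± 1.49 to 21.3 ± 2.1 TPM (1.65 ± 0.25). LDHD (0.38 ± 0.23 to 4.11 ± 0.35 TPM, 1.90 ± 0.20) and GCKR (0.02 ± 0.04 to 3.87 ± 2.22 TPM, 2.16 ± 0.29) were also called higher. Both passed the filter on low values only through their resistant libraries. The muscle enolase ENO3 (-1.82 ± 0.34) and BPGM (-1.48 ± 0.34) fell. With median-ratio scaling the calls of GBE1, BPGM, TKT and PGAM5 were lost.

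HIF1A was at 84.2 ± 40.0 and 99.6 ± 1.1 TPM in U87 (0.34 ± 0.29, not called) and fell from 256 ± 59 to 94.0 ± 9.5 TPM in U118 (-1.41 ± 0.23, adjusted p = 0.0011), and EPAS1, which encodes HIF2α, was at 57.1 ± 2.6 and 118.4 ± 40.5 TPM in U87 (0.99 ± 0.22, under the fold threshold, and 1.25 and called with median-ratio scaling) and fell from 116 ± 24 to 51.3 ± 1.7 TPM in U118 (-1.14 ± 0.22, adjusted p = 0.0024). Both U118 calls were lost with median-ratio scaling (-0.85 and -0.58). VHL, which marks both for degradation, fell in U87 (-1.06 ± 0.15), a call that the same scaling also ended (-0.82). HIF3A was listed at 0 in U118 sensitive and had 3.31 ± 0.15 TPM in U118 resistant libraries, through which alone it passed the filter. Transcript levels do not measure the proteins, whose amount is set mainly by degradation. Of the 13 mitochondrially encoded genes of the respiratory chain, 0 were called in U87 (4 higher with median-ratio scaling, against 4.76% of all genes) and 2 were higher in U118 (15.4%, against 8.64% of all genes), MT-ND1 (2.10 ± 0.59) and MT-ND2 (1.84 ± 0.61).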

How the data were processed

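Cells of U87 and U118 were profiled by mRNA-seq, with 3 sensitive and 3 resistant libraries each. The authors deposited TPM per gene, in 1 table for each line. The submitters' processing notes name FastQC 0.11.2, Trimmomatic 0.36, HISAT2 2.0, bedtools 2.26.0 and GRCh38, and the quantification tool and annotation are not given in the sources used here. Symbols of 57392 of 58174 identifiers came from a gene name table, and positions from GENCODE release 29. Groups and replicate numbers came from the titles. Values were fitted as log2(TPM + 1) with limma 3.58.1 in R 4.3.3 (eBayes with trend), which was tested on simulated data, and p-values were adjusted by Benjamini-Hochberg over all genes. Sums and shares were compared by exact two-sided permutation tests with scipy 1.17.1. Errors of levels are SDs and of fold changes SEs. The genes and lists were chosen with earlier results of these data known. All 38 genes are named; from each further list, up to 3 called genes in each direction were named by size of change. Alternatives were pseudocounts of 0.1 and 0.001, no filter, a minimum mean of 10 TPM, scaling by median ratios, TPM without mitochondrially encoded genes, eBayes without trend, a replicate block, no fold threshold and leaving out each library.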

Additional observations from a re-analysis of the deposited data

Results flagged for a closer look

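For 9 of the 38 genes the change from sensitive to resistant cells differed between the lines in the test of the difference itself (limma interaction, adjusted over all genes). The U118 change minus the U87 change, on the log2 scale, was -2.94 for NDRG1, -2.84 for ADM, -2.52 for BNIP3L, -2.11 for ANGPTL4, -1.92 for P4HA1, -1.78 for CA12, -1.68 for HK2, 1.43 for PFKP and 1.36 for ENO2. Against the 12% of all genes called higher and the 18.5% called lower in this test, the number is not particular to these genes. For ANGPTL4 the U87 values lay under the filter on low values, near the floor of the scale. Of 9 genes of the HIF pathway tested, EPAS1 (-2.13), HIF1A (-1.75) and ARNT (-1.17) were called lower in that test (33.3%, against 18.5%). HIF3A (2.63) and ARNT2 (1.08) were called higher (22.2%, against 12%). HIF3A passed the filter only through its U118 resistant values, so its call rests on that group. With median-ratio scaling 2 of the 9 were lower and 3 higher, against 2417 lower and 2515 higher of all 16382 genes. The part of these genes in the differences was not tested.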

How the results depend on the processing

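Depth is unknown, 3 libraries a group give no exact p under 0.1, and scaling decides many calls because TPM is a share. In U87, 11 genes were higher and 7 lower without the fold threshold, against 1306 and 4107 of all 13845 genes tested. With either pseudocount or without mitochondrially encoded genes 6 were higher, against 598 (pseudocount 0.1), 604 (0.001) and 551 of all genes. With median-ratio scaling 7 were higher (18.9%, against 4.76%). The median log2 fold change of the genes was 0.27 with that scaling and 0.15 without mitochondrial genes. In U118 median-ratio scaling gave 6 higher, 3 lower and a median of 0.15. Combined with leaving out resistant replicate 1, an alternative chosen after seeing the data, it gave 8, 4 and 0.23. Leaving out each library in turn, U87 had 3 to 6 higher (6 without sensitive replicate 2, 5 without resistant replicate 1 or 2), 0 lower, and a median of 0.0072 to 0.115 (0.115 without sensitive replicate 2); U118 had 2 to 3 higher, 6 to 15 lower and a median of -0.52 to -0.29; 9 to 16 genes differed between the lines (16 without U118 resistant replicate 1); 7 to 10 shares did not overlap in each line; and the log2 ratio of summed enzyme TPM was 0.005 to 0.0148 in U87 and -0.0495 to 0.0764 in U118, below 0 without sensitive replicate 3. Deviations of same-numbered libraries correlated at -0.07 to 0.01 in U87 and 0.05 to 0.14 in U118, where each library correlated best with its own number, a hint from the data and not from the design; with the replicate number as a block, U87 kept counts of 3 higher and 0 lower, U118 of 3 and 8, and 10 genes differed between the lines, with PDK1 added (-1.03).

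Among the log2 fold changes, signs turned only in comparisons where the gene was not called. With median-ratio scaling the log2 fold change became positive in U87 for GPI (0.26), PFKM (0.18), TPI1 (0.21), LDHB (0.0227), CA12 (0.15) and BNIP3 (0.18), and without mitochondrial genes for GPI (0.13), PFKM (0.0516), TPI1 (0.0856), CA12 (0.0264) and BNIP3 (0.063). In U118 median-ratio scaling turned HK1 (0.37), PFKL (0.17), ENO1 (0.22), PKM (0.43), LDHA (0.13), SLC16A3 (0.29) and ANKRD37 (0.0316), the combined alternative HK1 (0.51), PFKL (0.37), ENO1 (0.33), PKM (0.70), SLC2A1 (0.11), SLC16A3 (0.42) and ANKRD37 (0.14), and leaving out mitochondrial genes HK1 (0.0117) and PKM (0.0703). The difference between the lines turned with median-ratio scaling for GAPDH (0.0818), PKM (0.11) and ANKRD37 (0.14). Leaving out single libraries spanned 0 in U87 for GPI (-0.0405 to 0.0507), PFKL (-0.0483 to 0.21), PFKM (-0.16 to 0.0188), TPI1 (-0.15 to 0.00475), PKM (-0.0321 to 0.0512), SLC16A1 (-0.23 to 0.24), PDK1 (-0.043 to 0.21), CA12 (-0.25 to 0.12) and BNIP3 (-0.25 to 0.14), in U118 for GPI (-0.034 to 0.0723), PGK1 (-0.0122 to 0.52), SLC2A3 (-0.17 to 0.46) and SLC16A3 (-0.56 to 0.0392), in the difference for GPI (-0.0302 to 0.0762), ALDOA (-0.015 to 0.29), ENO1 (-0.0839 to 0.27) and ANKRD37 (-0.27 to 0.0598), and in the shares for P4HA2 in U87 (-0.79 to 2.49 points) and SLC16A3 in U118 (-1.13 to 12.1 points). The cause was not tested.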
